A study of Rattus norvegicus with 12 samples.

Results

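The Hox-cluster miRNAs miR-10a, miR-10b, miR-196a, miR-196b, miR-196c and miR-615 were followed in lumbosacral spinal cord from Wistar rat fetuses at embryonic day 17. They were chosen by name, each row carrying the miRNA's name alone or with an arm (5p or 3p), which gave 11 of the 846 rows of the miRNA table, and all 11 passed the filter on low counts. One group was fetuses with anorectal malformations (ARM) induced with ETU, which stands for ethylenethiourea, a compound given to the dam in this model. The other was normal fetuses. Each group had 3 small RNA libraries, numbered 4 to 6 in the labels. The labels name no allele, no dose, no number of fetuses or litters per library, and no group given ETU without a malformation, so the exposure and the malformation cannot be told apart. Whether a library is 1 cord or a pool is not stated in the labels, so p-values here cover only the spread between the libraries, part of which may be technical.

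Hox genes encode transcription factors that give cells along the body axis their position, and in mammals they stand in clusters named Hoxa to Hoxd. A few miRNA genes lie between or inside these Hox genes and are transcribed in similar domains of the trunk and tail. A miRNA is cut from a hairpin RNA and guides a silencing complex to messenger RNAs, mainly through its seed, bases 2 to 8. In mouse, miR-196 directs cleavage of Hoxb8 RNA, and mice that lack miR-196 genes have altered vertebral identity.

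In the RefSeq annotation of GRCr8 all 6 miRNA genes lay in Hox clusters. Mir10a lay between Hoxb5 and Hoxb4 and Mir196c between Hoxb13 and Hoxb9, both on chromosome 10. Mir10b lay within Hoxd4 on chromosome 3, and Mir196b between Hoxa9 and Hoxa10 on chromosome 4. On chromosome 7, Mir196a lay between Hoxc10 and Hoxc9, and Mir615 within the spans of Hoxc6 and Hoxc5. Hox genes with low numbers, such as Hoxb4, are active from the hindbrain backward, whereas those with high numbers, such as Hoxc10, are active in the lumbosacral and tail region.

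RefSeq gave a mature sequence for 10 of the 11 rows, all but miR-196a-3p. The 5p strands and the single listed strand of miR-615 are shown 5′ to 3′ with the seed in capitals, because the seeds group the members and single bases separate the paralogs.
miR-10a-5p (chr10:81779730-81779752, + strand): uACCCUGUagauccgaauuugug
miR-10b-5p (chr3:80035886-80035907, + strand): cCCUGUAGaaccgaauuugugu
miR-196a-5p (chr7:135988900-135988921, + strand): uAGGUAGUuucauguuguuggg
miR-196b-5p (chr4:82661149-82661170, - strand): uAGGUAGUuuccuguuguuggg
miR-196c-5p (chr10:81727561-81727582, + strand): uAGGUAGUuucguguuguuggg
miR-615 (chr7:136030369-136030390, + strand): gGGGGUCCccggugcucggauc

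The 3 miR-196 strands had the seed AGGUAGU, which no other mature entry of the 724 in the RefSeq table had. Counted from 1 at the 5′ end, miR-196a-5p and miR-196b-5p differed by A12C alone, and miR-196a-5p and miR-196c-5p by A12G alone. The listed miR-10b-5p starts 2 bases later than miR-10a-5p, and over the 21 bases they share the strands differed by U12A alone, counted in miR-10a-5p. As listed, their seeds are therefore ACCCUGU for miR-10a-5p and CCUGUAG for miR-10b-5p. The 2 bases before the listed miR-10b-5p in its hairpin are UA, the bases with which miR-10a-5p starts. The sources used here do not give how the authors' counting treated mismatches and shifted ends. Reads of these paralogs may be split between rows for that reason, and each paralog's level is uncertain to that extent.

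Total counts ran from 12262705 to 13233949 in ARM libraries and from 11526673 to 12856194 in normal libraries. Levels are in CPM, the usual counts-per-library scale, here with library totals taken over the tested rows and adjusted by TMM, a correction for differing library make-up. The 10 mature strands with a listed sequence are 21 to 23 bases long, so CPM was not adjusted for length. Whether library preparation captured different sequences equally was not tested. Orders, sums and ratios between different miRNAs or strands below are therefore of counts, and may differ from those of the molecules. Markers of the labelled tissue were present: the 6 miRNAs of a neural list summed to 349106 to 370340 CPM in ARM and to 341127 to 354004 CPM in normal libraries. Most of that sum was miR-9a-5p, of neural progenitors, while 4 of the other 5 had log2 fold changes below 0. All 3 ARM libraries were above the normal range for miR-9a-5p (log2 fold change 0.067, edgeR adjusted p = 0.934). For the motor neuron miRNA miR-218a-5p they were below the normal range (log2 fold change -0.28, edgeR unadjusted p = 0.00962, adjusted p = 0.598). Groups failed to overlap for 8.57% of the 525 tested miRNAs.

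The Hox-cluster miRNAs were a large part of the lumbosacral cord's miRNA counts, and nearly all of that was miR-10. The 11 rows took 12.0% to 13.8% of all counts in ARM libraries and 12.7% to 13.1% in normal libraries. At the top, miR-10a-5p ranked as the second most abundant of the 525 tested miRNAs, after miR-9a-5p, and miR-10b-5p ranked 8. The order below them was miR-196a-5p, miR-10a-3p, miR-10b-3p, miR-196b-5p, miR-615, miR-196c-5p, miR-196c-3p, miR-196a-3p and miR-196b-3p.

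No neighbours in that order overlapped. In each of the 10 neighbouring pairs the lowest of the 6 libraries for the higher row lay above the highest library for the lower one. The closest pair was miR-196a-5p and miR-10a-3p, with a ratio of means of 1.41, where the lowest miR-196a-5p library was at 1359 CPM and the highest miR-10a-3p library at 1295 CPM. By cluster, rows from Hoxb (miR-10a and miR-196c) summed to 104398 ± 11729 CPM in ARM and 104823 ± 3725 CPM in normal cord (SD, n = 3 each). The Hoxd rows (miR-10b) summed to 22127 ± 898 CPM in ARM and 21942 ± 542 CPM in normal cord. The Hoxc rows (miR-196a and miR-615) summed to 1635 ± 277 CPM in ARM and 1645 ± 199 CPM in normal cord. The Hoxa rows (miR-196b) summed to 296 ± 46.0 CPM in ARM and 323 ± 11.9 CPM in normal cord.

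**Figure D1:**
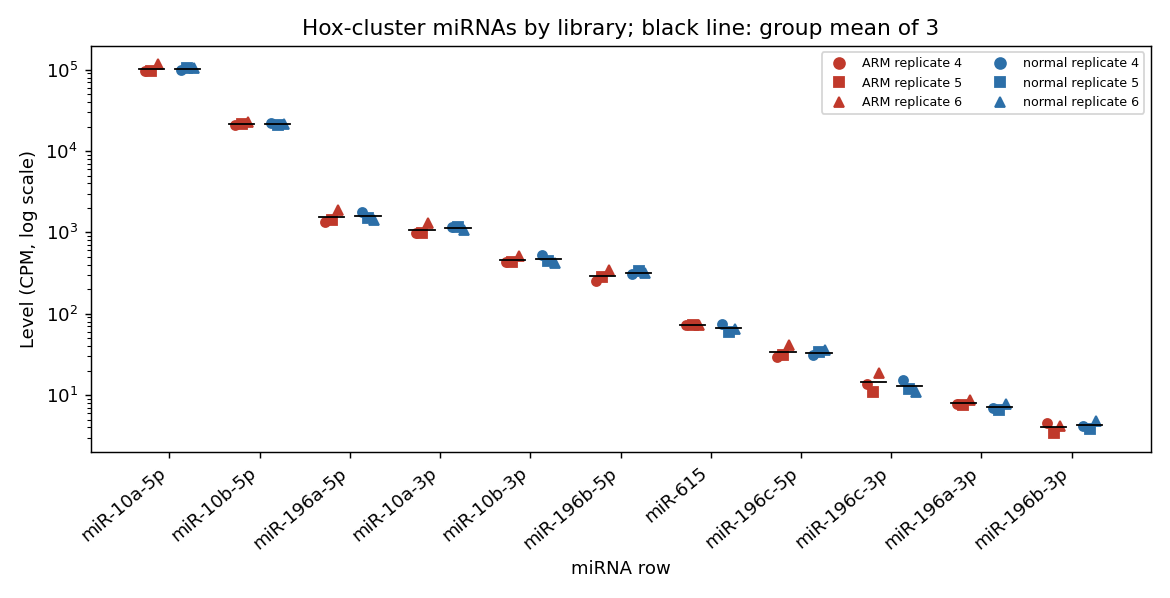
Level in CPM on a log axis of the 11 Hox-cluster miRNA rows in 3 ARM libraries (red) and 3 normal libraries (blue), in falling order of the mean, with black lines at the group means. In every row the ARM and normal points overlap, from about 103268 CPM for miR-10a-5p in ARM cord to 4.02 CPM for miR-196b-3p in ARM cord.

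The comparison of ARM with normal cord asked whether levels of these miRNAs differed with the malformation model. None did by the test used. Of the 11 rows 0 passed an adjusted p of 0.05 in edgeR's quasi-likelihood test, and 0 had an unadjusted p under 0.05, whereas 0% and 5.9% of the 525 tested miRNAs did. DESeq2 called 0 of the 11 rows, beside 1.33% of all tested miRNAs. The groups overlapped in all 11 rows, and they failed to overlap for 8.57% of all tested miRNAs. The log2 fold change (ARM minus normal) was above 0 for 5 rows and below 0 for 6, and its median was -0.0053, against a median of 0.0029 over all tested miRNAs. The median size regardless of sign was 0.061 for the 11 rows and 0.10 for all tested miRNAs.

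The most abundant member, miR-10a-5p, is the guide strand of the Hoxb4-side miRNA. Its level was 95444, 97843 and 116516 CPM in ARM replicates 4 to 6, against 99389, 105055 and 106500.2 CPM in normal replicates 4 to 6. The normal libraries lay between the ARM values, ARM replicate 6 being the highest and ARM replicates 4 and 5 the lowest of the 6. Its log2 fold change was -0.0053 (SE 0.082, 95% interval -0.20 to 0.19, edgeR adjusted p = 0.988), with means of 103268 ± 11536 CPM in ARM and 103648 ± 3758 CPM in normal cord (SD, n = 3 each). The interval corresponds to a level 0.872 to 1.14 times that of normal cord.

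Its paralog miR-10b-5p, from the Hoxd cluster, varied least among libraries of the 4 members above 1000 CPM. It stood at 20803, 21682 and 22520.2 CPM in the 3 ARM libraries, against 21977, 20985 and 21466 CPM in the normal libraries. ARM libraries were both the lowest and the highest of the 6. The log2 fold change was 0.013 (SE 0.053, 95% interval -0.11 to 0.14, edgeR adjusted p = 0.984), the narrowest interval among the 11 rows. It allows a level 0.925 to 1.10 times that of normal cord.

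The 3p strands of the miR-10 hairpins, the usually less used arms, gave the same picture of overlap. For miR-10a-3p the level was 978, 974 and 1295 CPM in ARM libraries, against 1159, 1157 and 1071 CPM in normal libraries. ARM replicates 4 and 5 lay below all normal libraries and ARM replicate 6 above them (log2 fold change -0.061, SE 0.12, edgeR adjusted p = 0.984). For miR-10b-3p it was 433, 434 and 511 CPM in ARM libraries, against 534, 446 and 418 CPM in normal libraries, with normal replicate 4 highest and normal replicate 6 lowest (log2 fold change -0.021, SE 0.11).

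Among the miR-196 strands, whose genes each lie beside a group 9 Hox gene, miR-196a-5p was the most abundant. It was at 1359, 1434 and 1869 CPM in ARM libraries, against 1790.4, 1497 and 1426 CPM in normal libraries. One library of each group, ARM replicate 6 and normal replicate 4, stood above the other 4 libraries. The log2 fold change was -0.016 (SE 0.14, 95% interval -0.34 to 0.31, edgeR adjusted p = 0.984). The spread of miR-196a-5p was among the wider ones: of the 72 miRNAs with a mean of at least 1000 CPM, it had the sixth highest coefficient of variation in ARM libraries, 17.7%, and the seventh highest in normal libraries, 12.3%. The medians over those 72 miRNAs were 7.21% in ARM and 5.38% in normal libraries.

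The Hoxa-side paralog miR-196b-5p had 251, 283 and 342 CPM in ARM libraries, against 309.98, 332 and 313 CPM in normal libraries. ARM replicates 4 and 5 were below and ARM replicate 6 was above all normal libraries, and the log2 fold change was -0.13 (SE 0.12, 95% interval -0.40 to 0.14, edgeR adjusted p = 0.978). The Hoxb-side paralog miR-196c-5p had 29.1, 30.7 and 41.2 CPM in ARM libraries, against 30.7, 33.6 and 35.5 CPM in normal libraries. Its ARM libraries were again both the lowest and the highest, with a log2 fold change of 0.016 (SE 0.15).

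The 3p strands of miR-196 were rare, with 42 to 219 counts per library. Their levels were 8.01 ± 0.523 CPM in ARM and 7.12 ± 0.579 CPM in normal cord for miR-196a-3p. For miR-196b-3p they were 4.02 ± 0.572 CPM in ARM and 4.25 ± 0.448 CPM in normal cord, and for miR-196c-3p 14.3 ± 3.89 CPM in ARM and 12.8 ± 2.37 CPM in normal cord (SD, n = 3 each). The widest interval of the 11 rows was that of miR-196c-3p, from -0.36 to 0.70 on the log2 scale, or 0.778 to 1.62 times the level of normal cord. Counting error alone gives a coefficient of variation of 14.1% in ARM and 13.8% in normal libraries for miR-196b-3p, close to the 14.2% and 10.5% seen, so a small difference was not detectable there at this depth.

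The row miR-615, whose gene lies within Hoxc5, had 72.4, 73.6 and 73.6 CPM in ARM libraries, against 74.6, 59.9 and 64.8 CPM in normal libraries. The 3 ARM values lay close together (73.2 ± 0.708 CPM, SD, n = 3), and normal replicate 4 was above all of them, while normal replicates 5 and 6 were below. The coefficient of variation of miR-615 in ARM libraries was 0.967%, below the 3.31% that counting error alone gives. That closeness is therefore not read as a trait of ARM cord. The log2 fold change was 0.14 (SE 0.10, 95% interval -0.096 to 0.38), and miR-615 had the smallest unadjusted p of the 11 rows, 0.206, at an edgeR adjusted p of 0.936. By unadjusted p it ranked 114 of the 525 tested miRNAs. Without normal replicate 4, the highest normal library, 1 of the 11 rows had an unadjusted p under 0.05, beside 3.31% of the 544 miRNAs then tested. That row was miR-615 (log2 fold change 0.24, edgeR unadjusted p = 0.0314, adjusted p = 0.887).

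**Figure D2:**
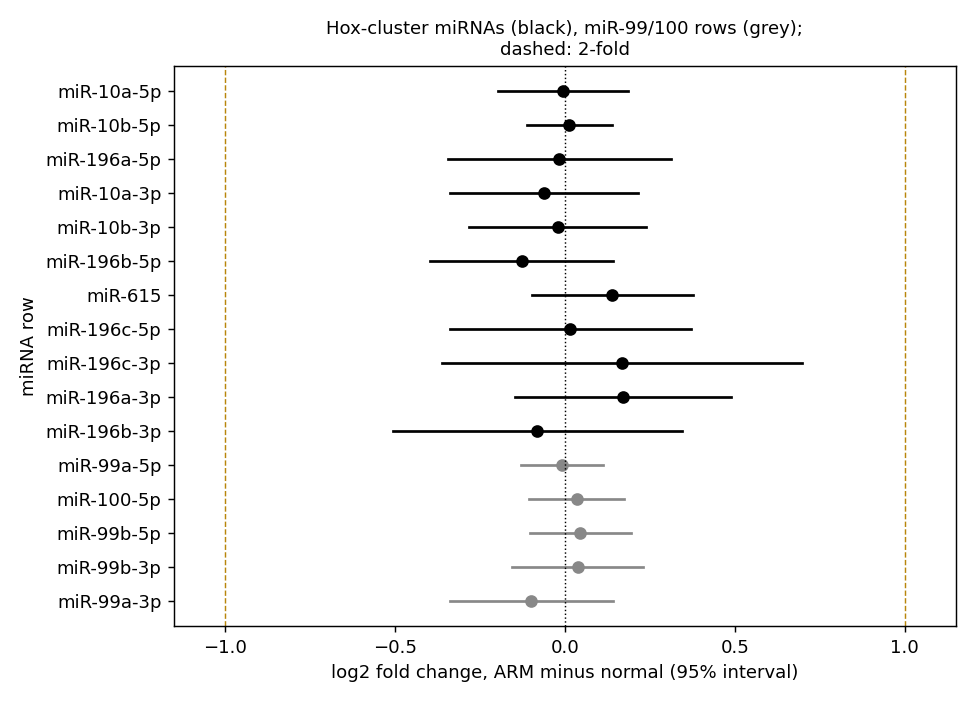
Log2 fold change (ARM minus normal) with its 95% interval for the 11 Hox-cluster rows (black) and the 5 tested miR-99 and miR-100 rows (grey), with dashed lines at a 2-fold change. Every interval spans 0 and none reaches a 2-fold change, the widest being that of miR-196c-3p, from -0.36 to 0.70.

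ARM replicate 6 stood apart from the other ARM libraries in these rows. It was the highest of the 3 ARM libraries in 10 of the 11 rows, all but miR-196b-3p, and the highest of all 6 libraries in 8. Over all 525 tested miRNAs it was the highest ARM library in 38.5% and the highest of all in 22.3%. ARM replicate 4 was the lowest of all 6 libraries in 5 of the 11 rows and ARM replicate 5 in 3. Scaled to total counts without TMM, ARM replicate 6 was the highest ARM library in 8 rows and the highest of all in 5. Shares over all tested miRNAs were not computed for the lowest library or for total-count scaling. Those counts are therefore not read as particular to the Hox-cluster rows. The TMM factor of ARM replicate 6, 0.967, was the lowest of the 6, whose others ran from 0.995 to 1.02.

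Values without ARM replicate 6 moved downward for the rows it raised. The log2 fold change of miR-10a-3p was then -0.22 (edgeR unadjusted p = 0.0154, adjusted p = 0.458) and that of miR-196b-5p -0.26 (unadjusted p = 0.0216, adjusted p = 0.578). Without this library 2 of the 11 rows had an unadjusted p under 0.05, beside 7.46% of the 536 miRNAs then tested, and none passed the adjusted threshold. The epithelial list, 6 tested miRNAs such as miR-200a-3p, summed to 375, 603 and 87.4 CPM in ARM replicates 4 to 6, against 111, 171 and 135 CPM in normal libraries. The sum was lowest in ARM replicate 6, as were 4 of its 6 members, the exceptions being miR-205 and miR-200c-3p. The part of tissue make-up in its Hox-cluster levels was not tested.

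**Figure D3:**
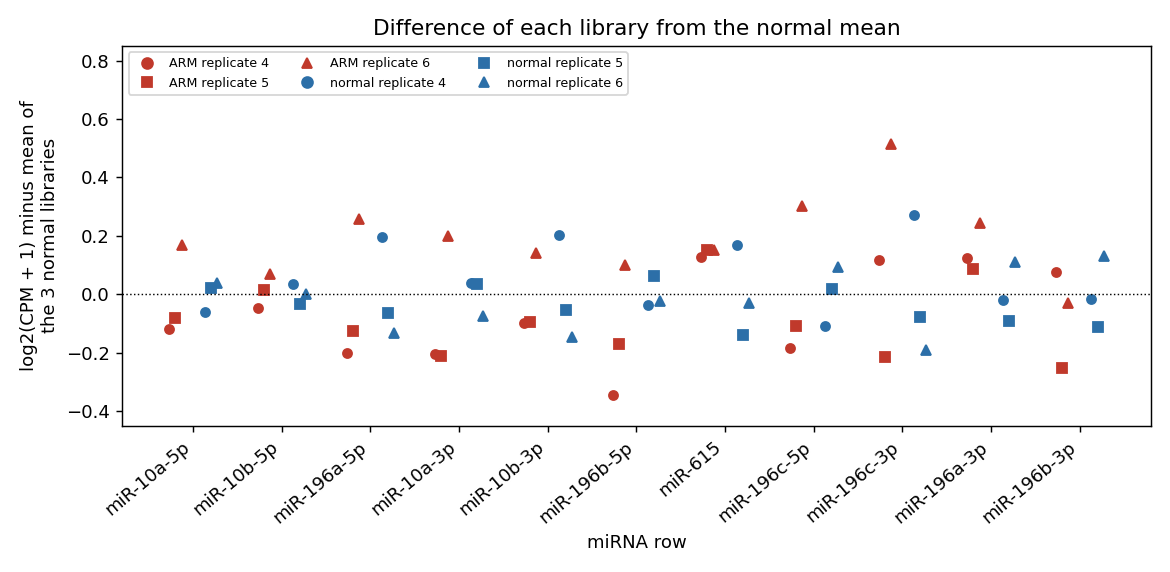
Difference in log2(CPM + 1) of each library from the mean of the 3 normal libraries for the 11 Hox-cluster rows, ARM libraries in red to the left of normal libraries in blue. ARM replicate 6 (red triangles) is the highest ARM library in 10 rows, reaching 0.51 for miR-196c-3p.

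The make-up of each paralog group was compared within libraries, where scaling plays no part. Of the miR-10 5p counts, miR-10a-5p supplied 82.6% ± 1.06 in ARM and 82.8% ± 0.808 in normal cord (SD, n = 3 each). There were 4.59, 4.51 and 5.17 counts of miR-10a-5p per count of miR-10b-5p in ARM libraries, against 4.52, 5.01 and 4.96 in normal libraries. Of the miR-196 5p counts, miR-196a-5p supplied 82.7% ± 0.524 in ARM and 81.6% ± 2.11 in normal cord. The share of miR-196b-5p was 15.5% ± 0.551 in ARM and 16.7% ± 1.85 in normal cord, and that of miR-196c-5p 1.79% ± 0.0358 in ARM and 1.75% ± 0.284 in normal cord. The groups overlapped for miR-10a-5p and for all 3 miR-196 strands, and normal replicate 4 had both the highest miR-196a-5p share, 84.0%, and the lowest miR-196c-5p share, 1.44%.

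Hairpins of Mir10a and Mir196c are shown with both listed mature strands in capitals, as an example of a hairpin with 1 dominant arm and of one whose arms were counted more evenly.
Mir10a (chr10:81779709-81779818, + strand): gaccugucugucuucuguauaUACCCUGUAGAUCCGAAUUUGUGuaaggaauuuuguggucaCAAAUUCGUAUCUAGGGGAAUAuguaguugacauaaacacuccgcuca
Mir196c (chr10:81727551-81727630, + strand): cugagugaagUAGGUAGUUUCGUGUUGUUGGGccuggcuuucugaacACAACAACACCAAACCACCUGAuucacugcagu

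For 4 of the 5 miRNAs with both arms in the table the 5p strand far outnumbered the 3p strand, and for miR-196c it did so by 1.99 to 3.25 times. There were 2.11, 2.86 and 2.23 miR-196c-5p counts per miR-196c-3p count in ARM libraries, against 1.99, 2.82 and 3.25 in normal libraries. For miR-196a, whose 5p strand differs from that of miR-196c at a single base, the ratio was 173, 189 and 217 in ARM libraries, against 256, 226 and 184 in normal libraries. The ratios of the 2 miRNAs did not overlap in any library of either group. Ratios averaged 96.0 ± 5.44 in ARM and 92.0 ± 6.90 in normal cord for miR-10a, 47.4 ± 2.97 in ARM and 46.5 ± 5.09 in normal cord for miR-10b, and 73.8 ± 15.9 in ARM and 75.6 ± 10.2 in normal cord for miR-196b (SD, n = 3 each). Since a single miscalled base can move a read between miR-196 paralogs, the miR-196c ratio is uncertain.

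Arm ratios did not separate ARM from normal cord. On the log2 scale, with 0.5 counts added to each arm, the difference of group means ran from -0.19 for miR-196a to 0.063 for miR-10a. Two-sided exact permutation tests gave p = 0.3 for miR-196a, 0.5 for miR-10a, 0.7 for miR-196c and 0.8 for miR-10b and miR-196b (0.8 for each of the 5 after Benjamini-Hochberg adjustment). With 3 libraries against 3 the smallest p such a test can give is 0.1. The groups overlapped for all 5 miRNAs. In both miR-10a and miR-10b, ARM replicate 6 had the lowest ratio of the ARM libraries, 90.0 and 44.1, and normal replicate 4 the lowest of all, 85.8 and 41.2.

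**Figure D4:**
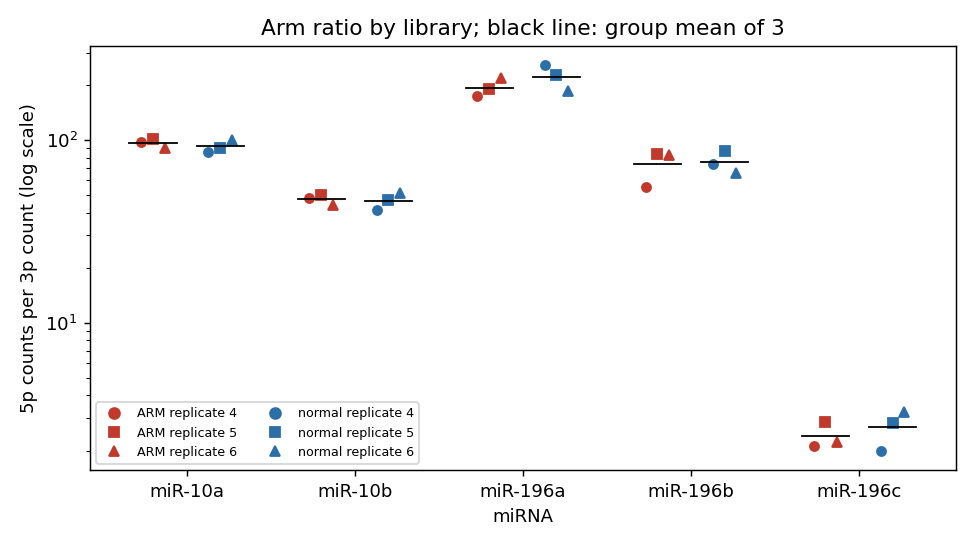
Counts of the 5p strand per count of the 3p strand, on a log axis, for the 5 Hox-cluster miRNAs with both arms listed, in 3 ARM libraries (red) and 3 normal libraries (blue), with black lines at group means. Ratios are near 200 for miR-196a, with means of 193 in ARM and 222 in normal cord, and lie between 1.99 and 3.25 for miR-196c.

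The closest sequence relatives of miR-10 outside the Hox clusters are miR-99 and miR-100, which share most of its strand but not its seed. miR-99b-5p and miR-100-5p are shown for comparison with miR-10a-5p, with seeds in capitals.
miR-99b-5p (chr1:67350070-67350091, + strand): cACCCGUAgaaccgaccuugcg
miR-100-5p (chr8:50798307-50798328, + strand): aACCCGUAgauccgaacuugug

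Over 22 aligned bases miR-100-5p differed from miR-10a-5p by C3A, U6C and U18C, counted in miR-10a-5p. The relatives were abundant too. For miR-99a-5p the level was 90713 ± 1202 CPM in ARM and 91158 ± 4491 CPM in normal cord, and for miR-100-5p 23464 ± 608 CPM in ARM and 22901 ± 1339 CPM in normal cord (SD, n = 3 each). Of their 6 rows 5 were tested, and the log2 fold change was above 0 for 3 and below 0 for 2 (median 0.035). None passed (edgeR adjusted p of at least 0.978). At a similar depth, miR-99a-5p varied by 1.32% (coefficient of variation) over the ARM libraries and miR-10a-5p by 11.2%, whereas over the normal libraries miR-99a-5p varied by 4.93% and miR-10a-5p by 3.63%; this difference in spread was not tested.

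Noncoding transcripts named after Hox genes were measured in a separate set of lncRNA libraries of the same groups, 3 each. Of 8 such rows 5 were tested and 0 were called by edgeR, beside 0.0515% of the 13584 tested lncRNA rows. In those 5 rows 0 had an unadjusted p under 0.05, beside 3% of all tested lncRNA rows, and DESeq2 called none of them, beside 0.133%. Their groups overlapped, whereas groups failed to overlap for 7.78% of all tested lncRNA rows. In simulated lncRNA counts the test recovered 0 of 96 rows changed 2-fold, drawn from all levels. The lack of calls therefore does not show that none of the 5 rows changed 2-fold. Their intervals, which are not adjusted for the number of rows, are given for the size. The 95% interval of the log2 fold change was -0.11 to 0.36 for Hoxb8.a, -0.23 to 0.44 for Hoxb3.c and -0.20 to 0.49 for Hoxd9.b. For Hoxc4.b it was -0.54 to 0.38. Only the interval of Hoxc10.b, from -1.41 to 0.47, reached a 2-fold change. Hoxb3.c, named after a gene of the cluster that holds Mir10a, lay on chromosome 10 from 84141907 to 84190176 in the deposited coordinates, for which the sources used here give no rat build. It had 96.5 ± 12.1 CPM in ARM and 89.6 ± 8.44 CPM in normal cord. Hoxd9.b had 146 ± 4.10 CPM in ARM and 132 ± 22.8 CPM in normal cord, Hoxb8.a 391 ± 11.4 CPM in ARM and 359 ± 31.9 CPM in normal cord, and Hoxc4.b 14.8 ± 2.01 CPM in ARM and 15.7 ± 2.35 CPM in normal cord (SD, n = 3 each). Hoxc10.b, named after a gene beside Mir196a, had 2.69 ± 0.969 CPM in ARM and 3.78 ± 1.32 CPM in normal cord. CPM in the lncRNA libraries are relative to lncRNA counts and are not on the same scale as miRNA CPM.

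The miRNAs whose pattern over the 6 libraries was most like a member were found by Pearson correlation of log2(CPM + 1), as a description with no test, since the highest of 514 were picked. For miR-10a-5p these were miR-135b-3p (r = 0.965), miR-1249 (r = 0.949), miR-155-5p (r = 0.942) and miR-30a-3p (r = 0.921), all highest in ARM replicate 6. The member miR-196c-5p was closer than any of them (r = 0.994). The other rows of the Hoxb cluster were less alike, with r = 0.835 for miR-10a-3p, cut from the same hairpin, and r = 0.450 for miR-196c-3p. Rows of the other clusters ran from r = -0.21 for miR-615 to 0.840 for miR-196b-5p, with 0.603 for miR-10b-5p and 0.593 for miR-196a-5p. ARM replicates 4 and 6 were the 2 libraries farthest from the median. Without them r was 0.919, 0.885, 0.729 and 0.629 for the 4 miRNAs outside the members, in the order given. It was 0.971 for miR-196c-5p and 0.762 for miR-196b-5p, but 0.405 for miR-10a-3p and -0.30 for miR-196c-3p.

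For miR-196a-5p the most alike miRNAs outside the members were miR-30c-5p (r = 0.936), the predicted miRNA 34 of the deposited table (r = 0.923), miR-132-3p (r = 0.900) and miR-708-5p (r = 0.898). Without ARM replicate 6 and normal replicate 4, r was 0.932, -0.22, 0.677 and -0.089 in that order, so the likeness of the predicted miRNA and of miR-708-5p rested on those 2 libraries. Among the members, miR-10b-3p was the most alike over all 6 libraries (r = 0.945, or 0.461 without the 2 libraries). Without the 2 libraries the most alike member was miR-196b-5p (r = 0.917, or 0.664 over all 6). The strand from the same hairpin, miR-196a-3p, was at r = 0.172, or -0.86 without the 2 libraries.

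The other cell type lists give the background of these bulk samples, in which fewer cells of a type and less RNA per cell cannot be told apart. The 7 mesenchyme and cartilage miRNAs summed to 13175 to 15046 CPM in ARM and 13108 to 14104 CPM in normal libraries. The 5 skeletal muscle miRNAs summed to 144 to 190.2 CPM in ARM and 122 to 233 CPM in normal libraries, and the 2 endothelial ones to 9424 to 10731 CPM in ARM and 10216 to 10752 CPM in normal libraries. The 3 sensory ganglion miRNAs summed to 8793 to 14917 CPM in ARM and 7116 to 9801 CPM in normal libraries. Log2 fold changes were above 0 for all 3 of them (median 0.61) and for all 6 tested epithelial miRNAs (median 2.72). The epithelial sum was nonetheless lowest in ARM replicate 6. They were above 0 for 3 of the 7 mesenchyme and cartilage, 2 of the 5 skeletal muscle and 0 of the 2 endothelial miRNAs. The edgeR test called 0 in each of these lists. Of the 4 blood miRNAs, miR-451-5p, miR-144-3p and miR-144-5p were listed at 0 counts in all 6 libraries. The other, miR-486, had no row of that name. The sources used here do not give the counting tool or the catalogue, so these zeros are not read as absence of blood. The part of these tissues in the levels of the Hox-cluster miRNAs was not tested.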

How the data were processed

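Small RNA libraries of lumbosacral cord, 3 labelled ARM and 3 labelled normal, were analysed, with the lncRNA libraries of both groups used for Hox-named rows. The authors deposited whole-number counts for both tables, beside TPM values (miRNA) and FPKM values (lncRNA), per the file headers. The deposited TPM equalled each row's share of its library's counts within 0.000464, and neither TPM nor FPKM entered a test. The submitters' processing notes list Cuffdiff, Cufflinks 2.1.1, TopHat2 2.0.9, CASAVA 1.8 and the build mm10, which is a mouse build. The sources used here do not give the miRNA counting tool, its mismatch setting or the catalogue.

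Counts were fitted with edgeR 4.0.16 in R 4.3.3 (filterByExpr, TMM, glmQLFit, glmQLFTest, no covariate). Benjamini-Hochberg adjustment ran over every tested row of a table, 525 for miRNAs and 13584 for lncRNAs. Standard errors came from the F statistic. Groups and replicate numbers came from sample titles. Members and lists were chosen with earlier results of these data known. Named were all member rows, the 4 most alike miRNAs for miR-10a-5p and miR-196a-5p, tested rows of miR-99 and miR-100, Hox-named lncRNA rows of groups 3 to 5 and 8 to 10, and summed cell type lists. Alternatives were RLE factors, total counts, DESeq2 1.42.0, no filter, leaving out each library, a replicate block, summed arms and summed paralogs. Libraries of a group differed pairwise by more than sampling noise (chi-square divided by its degrees of freedom 33.8 or more), so none was a copy of another. Each was counted as 1 sample, although this check cannot show that the libraries came from separate fetuses. In counts simulated for the miRNA comparison over 513 miRNAs, 97 were changed 2-fold and 97 were changed 4-fold at once. Recovery with fewer miRNAs changed was not simulated and may be lower. The test recovered 80.4% of those changed 2-fold and 99.0% of those changed 4-fold, with 8 false calls. For the lncRNA comparison, over 13281 rows, it recovered 0 of 96 changed 2-fold and 70.2% of those changed 4-fold, with 9 false calls. Reads carry no stated molecular identifiers, and the floor of 3 counts per library is 0.226 to 0.256 CPM, which covers counting error only.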

Additional observations from a re-analysis of the deposited data

How the results depend on the processing

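No Hox-cluster row passed the adjusted threshold under any alternative. Over 136 values of the 11 rows the log2 fold change ran from -0.26 to 0.33 and the smallest adjusted p was 0.458. Over all miRNAs DESeq2 called 7 and edgeR called 0, and leaving out 1 library gave 0 to 3 calls, the 3 without ARM replicate 6.

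As the fold changes lie near 0, their sign was not stable. On total counts without TMM miR-10b-5p was at -0.0098 and miR-196c-5p at -0.0090. With paralogs of one arm summed, the miR-10 5p sum was at 0.00089, the miR-196 5p sum at -0.030 and the miR-196 3p sum at 0.13, which turns the sign for miR-10a-5p, miR-196c-5p and miR-196b-3p. Leaving out 1 library gave -0.22 to 0.021 for miR-10a-3p, -0.11 to 0.062 for miR-10a-5p, -0.11 to 0.093 for miR-10b-3p, -0.020 to 0.055 for miR-10b-5p, -0.17 to 0.092 for miR-196a-5p, -0.16 to 0.0036 for miR-196b-3p, -0.059 to 0.33 for miR-196c-3p and -0.16 to 0.12 for miR-196c-5p. It gave -0.20 to 0.0042 for Hoxc4.b. For the arm ratio it gave -0.055 to 0.10 for miR-10b, -0.15 to 0.14 for miR-196b and -0.35 to 0.0054 for miR-196c. The fold changes of miR-196a-3p, miR-196b-5p and miR-615 kept their sign under every alternative run, but that of miR-196b-5p was -0.015 without ARM replicate 4 and -0.26 without ARM replicate 6. Without normal replicate 4, miR-615 was at 0.24 (edgeR unadjusted p = 0.0314, adjusted p = 0.887).

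With the replicate number fitted as a block, 0 miRNAs and 0 Hox-cluster rows passed, and the number of miRNAs with an unadjusted p under 0.05 was 25, against 31 without the block. Same-numbered libraries did not deviate together (correlations of -0.034, -0.14 and -0.0039), and no ARM library correlated best with its own number, so the numbers were not taken to pair samples. The cause of these shifts was not tested. Depth limits miR-196b-3p, which had 42 to 60 counts per library and whose spread was close to counting error. It also limits miR-196a-3p, which had 82 to 104 counts per library. The coefficient of variation of miR-196a-3p was 6.52% in ARM and 8.13% in normal libraries, below the 10% and 10.7% of counting error. For miR-196c-3p the coefficient of variation, 27.1% in ARM and 18.5% in normal libraries, exceeded the 7.49% and 7.99% of counting error.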

Other observations

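The lncRNA row Hoxb5.a, named after the Hox gene on one side of Mir10a, was not tested for low counts. It had 240 counts in ARM replicate 2 and 1 count in each of the other 5 lncRNA libraries. This row was singled out after its values were seen. The untested rows Hoxd3.a and Hoxc9.a had 1 count in each of the 6 libraries and 2 to 12 counts per library.

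Per miR-196a-5p count there were 70.3, 68.3 and 62.3 miR-10a-5p counts in ARM libraries, against 55.5, 70.2 and 74.7 in normal libraries. The lowest and the highest of the 6 values were both in normal libraries.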
